A study of Capra hircus with 11 samples.

Results

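Chaperones and heat shock proteins were examined as 1 group of genes in goat (Capra hircus) cells that were taken from ear fibroblasts towards mammary epithelial cells. The members were chosen by name, with earlier results of these data known. Every gene row was taken whose symbol begins with HSPA to HSPE, HSP and a digit, or CCT and a digit. Rows of DNAJA, DNAJB or DNAJC and a digit were taken too, together with TCP1. This gave 73 of the 16678 gene rows that the tables list, and all 73 symbols occur in the RefSeq gene table of the goat. They were sorted into 8 families: 12 HSP70 genes, 3 HSP90 genes, 6 small HSP genes, the pair HSPD1 and HSPE1 (HSP60 and HSP10), 4 DNAJA, 9 DNAJB and 26 DNAJC genes, and 9 genes of the chaperonin TRiC. HSPBP1 and HSPBAP1 matched the rule as well but belong to none of these families.

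Single cells were measured with the 10x Genomics 3′ kit, version 2, in 11 samples of 5 groups. BFRTV0d holds 3 samples of ear fibroblasts before induction, BFRTV4d holds 3 samples after 4 days and BFRTV8d 2 samples after 8 days in the induction medium BFRTV, although the design text gives 3 replicates for BFRTV8d. CiMECs, 1 sample, are day-8 cells kept through further passages in a medium for goat mammary epithelial cells, and GMECs, 2 samples, are mammary epithelial cells of natural origin. All were grown as cultures and brought into suspension with trypsin, the samples of a group were pooled in 1 table, and no source says whether its samples were separate cultures or lanes of 1 library. With 1 table per group there was no replicate and no test: every comparison sets 2 libraries side by side, not 2 conditions, and the 95% intervals in parentheses after a fold or a ratio cover counting error only.

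Chaperones bind other proteins that are not yet, or no longer, folded. HSP70 proteins take up short stretches of unfolded chain, J-domain proteins (DNAJA, DNAJB, DNAJC) bring them their clients and start their ATP cycle, and nucleotide exchange factors release the client again. HSP90 finishes kinases and steroid receptors, small HSPs hold unfolding proteins in solution, HSP60 and HSP10 fold proteins inside mitochondria, and TRiC folds actin and tubulin inside a ring of different subunits. In secretory epithelium a part of this machinery works in the endoplasmic reticulum (ER), where HSPA5 (BiP) and HSP90B1 (GRP94) fold the exported proteins.

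The BFRTV0d, BFRTV4d and BFRTV8d tables held 10670, 10203 and 10152 barcodes, while CiMECs had 5188 and GMECs 5641 barcodes, with 97203521 to 117500853 unique molecular identifiers (UMIs) each. Ribosomal protein genes are missing from the 3 BFRTV tables, which hold no barcode under 1951 UMIs, whereas 74 of them are in the tables of CiMECs and GMECs, which go down to 500 UMIs, so that group and table set cannot be told apart between them. A level is given as CPM, UMIs per 1000000 UMIs of a table without ribosomal protein genes. Summed epithelial markers were at 1103 CPM in BFRTV0d, 5707 CPM in BFRTV4d, 12171 CPM in BFRTV8d, 7645 CPM in CiMECs and 12657 CPM in GMECs, and mesenchymal markers at 10956, 2654, 306, 13.8 and 0.111 CPM in the same order. The mesenchymal sum was thus the larger in BFRTV0d and the epithelial sum the larger in the other tables. Whether the cells were mammary cells or came from the ear was not tested, since no marker list was made for either. Endothelial, immune and muscle markers summed to at most 8.19 CPM in any table.

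Chaperones as a whole took a similar part of the RNA in all tables as scaled here. Their 73 genes summed to 7082 CPM in BFRTV0d, 7969 CPM in BFRTV4d, 7591 CPM in BFRTV8d, 7128 CPM in CiMECs and 8671 CPM in GMECs, while their make-up differed. HSP90 genes held 23.5% of all chaperone UMIs in BFRTV0d and 30.7% in BFRTV4d, then 31.0% in BFRTV8d, and 24.2% in CiMECs beside 31.2% in GMECs. Small HSP genes held 6.38%, 6.66%, 11.2%, 24.6% and 12.1% in the same order, so that in CiMECs they were the family with the largest share. The DNAJC family held 15.7% to 18.4% in the 4 tables after BFRTV0d, against 22.9% in BFRTV0d, and HSP60 with HSP10 held 8.62% in CiMECs and 15.6% in BFRTV0d, the lowest and highest of the tables. These shares do not depend on the total to which a table is scaled.

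**Figure D1:**
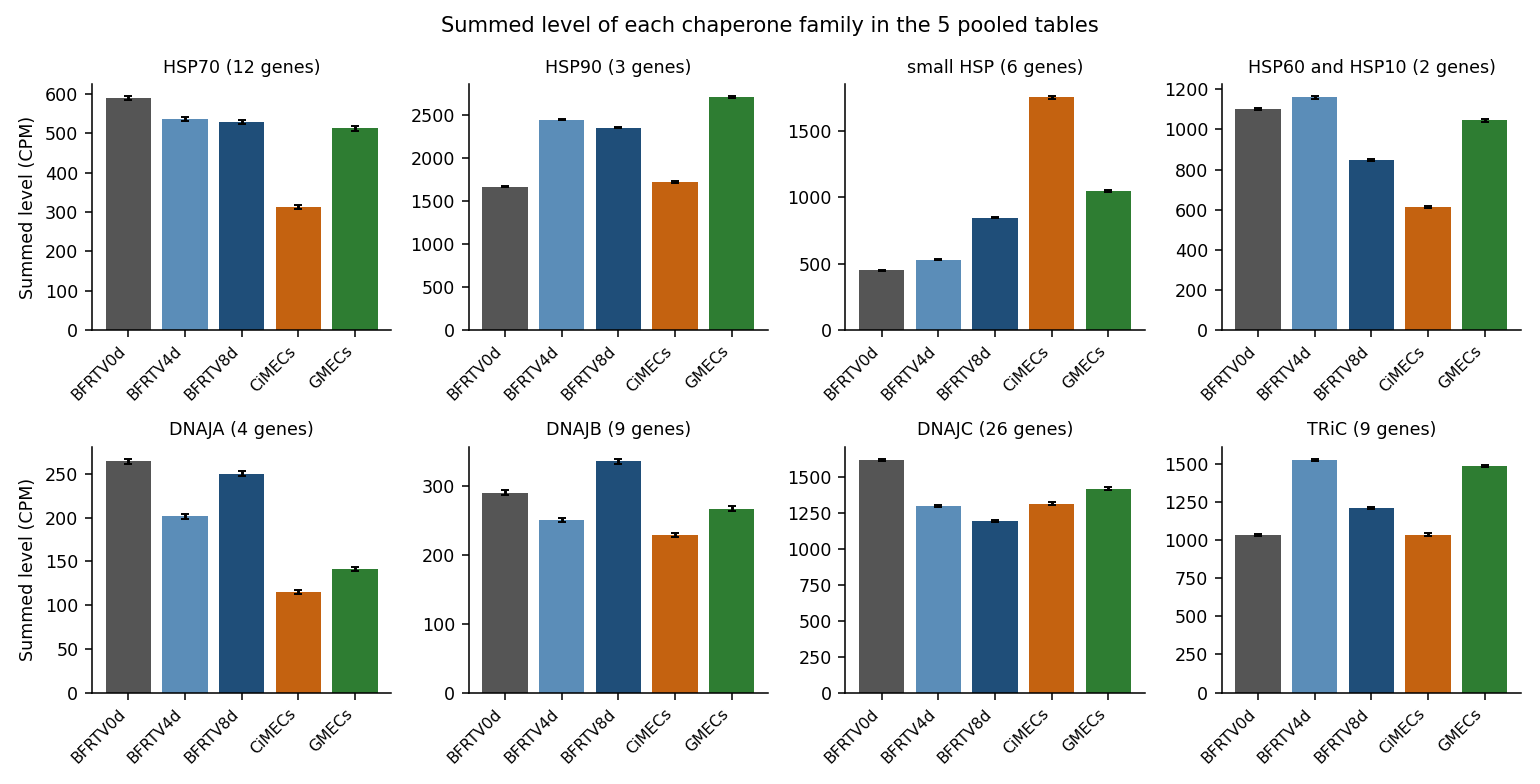
Summed level in CPM (vertical axes, from 0) of the 8 chaperone families in the 5 pooled tables, with bars for the sums and error bars for the 95% counting interval. HSP90 stood at 2446 CPM in BFRTV4d and 1667 CPM in BFRTV0d, and small HSP at 1753 CPM in CiMECs and 452 CPM in BFRTV0d.

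Of the 73 genes, 60 reached 10 CPM in at least 1 table and 13 did not. Among these 60, the highest level fell in BFRTV0d for 24, in GMECs for 11, in BFRTV4d and in BFRTV8d for 10 each and in CiMECs for 5. BFRTV0d thus held 40.0% of these peaks, beside 43.5% over all genes, and CiMECs 8.33%, beside 8.87%. For BFRTV4d the share was 16.7%, beside 9.30%, for GMECs 18.3%, beside 12.4%, and for BFRTV8d 16.7%, beside 25.8% over all genes. As scaled here, the lowest level fell in CiMECs for 28 genes (46.7%), beside 49.9% of all 9787 genes at this level. Courses over the 3 times of induction were taken as scaled here, from any difference in CPM and with no fold threshold. By this, 12 members went up at both steps, 19 went down at both, 13 were highest at day 4 and 16 lowest at day 4. A peak at day 4 was thus found in 21.7% of the members, beside 13.5% of all genes, while the other courses were near the share of all genes or under it: 20.0% beside 24.4% went up at both steps, 31.7% beside 30.8% went down at both and 26.7% beside 31.3% were lowest at day 4.

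After 4 days of induction members were found 2-fold apart in both directions, as scaled here at no larger shares than all genes. A gene was compared where 1 of the 2 tables had at least 10 CPM, and it was counted when it was at least 2-fold apart. Of 57 members compared, 7 were higher in BFRTV4d than in BFRTV0d, beside 13.4% of all genes compared, and 10 were lower, beside 25.4% of all genes. Their median log2 fold was -0.24 and that of all genes -0.39. TMM and median-of-ratios scaling moved the median of all genes to -0.16 and -0.14. With either, 10 of 56 members were higher and 8 lower, so that the larger side turned. The shares of all genes were 16.7% higher and 19.5% lower with TMM, and 17.0% and 19.0% with median-of-ratios scaling.

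After 8 days, 8 of 57 members were at least 2-fold higher in BFRTV8d than in BFRTV0d, beside 19.7% of all genes, and 10 were lower, beside 28.0% of all genes. Few of them differed between day 4 and day 8. Between BFRTV8d and BFRTV4d, 3 of 54 members were higher (10.7% of all genes) and 2 were lower (7.10% of all genes). Both BFRTV4d and BFRTV8d were set against the same BFRTV0d table, so their folds share its counting error.

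**Figure D2:**
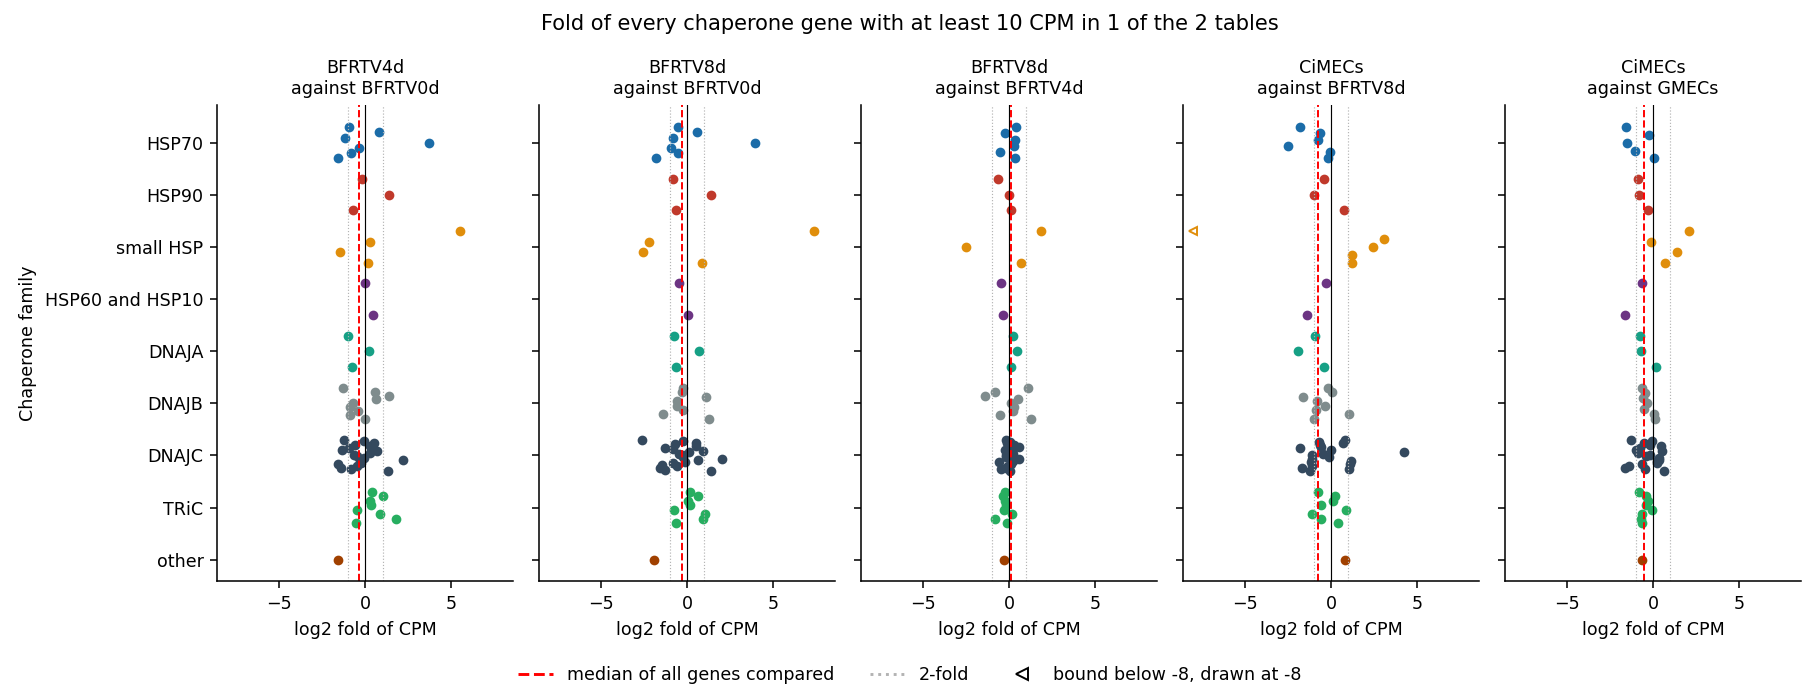
Log2 fold of CPM (horizontal axes) of each member compared, by family (vertical axis) and comparison (panels). The dashed line is the median of all genes compared, the dotted lines mark 2-fold, and the open triangle is HSPB8, which the CiMECs table does not list. Its fold, taken as if at 6 UMIs there, lay further out and is drawn near the left edge. It is an assumed value and not the bound that the legend names. Most members lay within 2-fold in every panel, and the small HSP genes spread most widely.

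Among the small HSPs, HSPB8 showed the widest range of any member. HSPB8 works with BAG3 in the removal of damaged proteins by autophagy. It was at 0.757 CPM in BFRTV0d, 33.6 CPM in BFRTV4d and 124 CPM in BFRTV8d while the tables of CiMECs and GMECs, whose listed genes each occur in at least 6 cells, did not list it. It was 44.4-fold higher in BFRTV4d than in BFRTV0d (36.0 to 55.4) and 3.67-fold higher in BFRTV8d than in BFRTV4d (3.54 to 3.81). In BFRTV0d it rested on 89 UMIs in 51 of 10670 cells. No fold is given for CiMECs or GMECs, since fewer than 6 cells could still hold it and their UMIs are not known.

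HSPB1 (HSP27), which protects actin filaments and is abundant in many epithelia, carried most of the small HSP signal. It was at 397 CPM in BFRTV0d, 448 CPM in BFRTV4d, 708 CPM in BFRTV8d, 1667 CPM in CiMECs and 1012 CPM in GMECs. In CiMECs it was 2.35-fold higher than in BFRTV8d (2.33 to 2.38) and held 23.4% of all chaperone UMIs, the top member of that table. The fold was under 2 when ribosomal protein genes were kept in the totals. Since the BFRTV tables hold none of these genes, that setting can only lower CiMECs and GMECs beside them. As scaled here the 2 mammary epithelial cultures were highest and the fibroblasts lowest, but with ribosomal protein genes kept GMECs, at 658 CPM, lay below BFRTV8d, at 708 CPM. Within epithelial only cells the induced tables lay below BFRTV0d, as given further on.

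HSPB6 (HSP20) and HSPB2, which are known from smooth and striated muscle, followed another course. HSPB6 was at 30.6 CPM in BFRTV0d, 37.0 CPM in BFRTV4d, 6.49 CPM in BFRTV8d, 55.6 CPM in CiMECs and 13.1 CPM in GMECs. HSPB2 was at 17.3 CPM in BFRTV0d, 6.26 CPM in BFRTV4d, 2.89 CPM in BFRTV8d, 15.7 CPM in CiMECs and 17.1 CPM in GMECs. Both were lowest at day 8 and at higher levels again in the passaged cells. In CiMECs, HSPB6 was 8.56-fold higher (7.89 to 9.31) and HSPB2 5.42-fold higher (4.77 to 6.18) than in BFRTV8d, and HSPB6 was 4.25-fold higher than in GMECs (3.96 to 4.57). HSPB11, a subunit of intraflagellar transport rather than a typical chaperone, reached 15.6 CPM in CiMECs and 4.94 to 6.73 CPM elsewhere. CRYAB, a small HSP that the naming rule does not take in, was at 236 CPM in CiMECs, against 13.1 CPM in BFRTV8d and 302 CPM in GMECs.

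**Figure D3:**
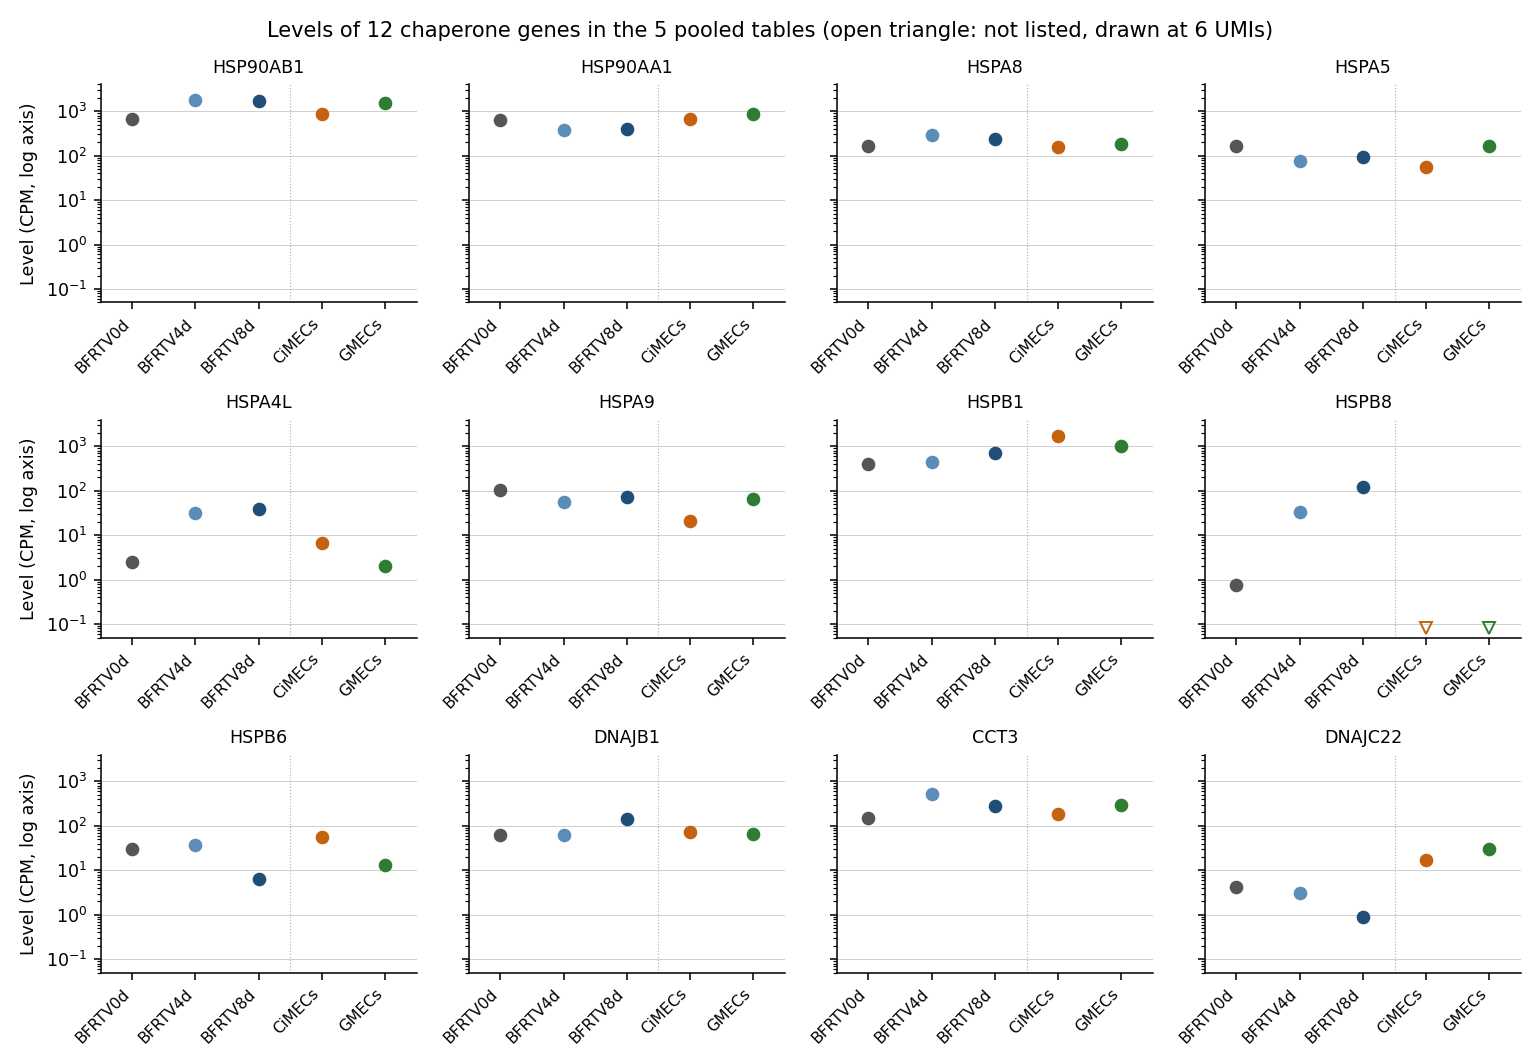
Levels in CPM (vertical axes, log scale) of 12 members in the 5 pooled tables (horizontal axes), with 95% counting intervals smaller than most points. Open triangles mark a table that does not list the gene, drawn at 6 UMIs, which is no measured level, and the dotted line separates the 2 table sets. HSPB8 and HSPA4L were highest at day 8, and HSPB1 was highest in CiMECs.

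In the HSP90 family the 2 cytosolic forms moved apart, with HSP90AB1 the higher of them in every table. HSP90AB1, the constitutive form, was at 679 CPM in BFRTV0d, 1746 CPM in BFRTV4d, 1739.8 CPM in BFRTV8d, 879 CPM in CiMECs and 1559 CPM in GMECs. HSP90AA1, the stress-inducible form, was at 622 CPM in BFRTV0d, 376 CPM in BFRTV4d, 403 CPM in BFRTV8d, 684 CPM in CiMECs and 850.2 CPM in GMECs. One form was thus higher in both induced tables than in BFRTV0d while the other was lower. The ratio of HSP90AB1 to HSP90AA1 UMIs, which is free of scaling, was 1.09 (1.08 to 1.10) in BFRTV0d, 4.65 (4.60 to 4.70) in BFRTV4d, 4.31 (4.27 to 4.36) in BFRTV8d, 1.28 (1.27 to 1.30) in CiMECs and 1.83 (1.81 to 1.85) in GMECs. HSP90AB1 was 2.57-fold higher in BFRTV4d than in BFRTV0d (2.55 to 2.59). The kit tags the 3′ end of transcripts, so that UMIs were not scaled by length, and a ratio between genes was compared only between tables.

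The HSP70 family summed to 590.5 CPM in BFRTV0d, 537 CPM in BFRTV4d, 530 CPM in BFRTV8d, 313 CPM in CiMECs and 513 CPM in GMECs. The differences between the 3 BFRTV tables were small, and that of BFRTV4d against BFRTV0d turned direction with the scaling, with a log2 fold of -0.14 as scaled here, 0.08 with TMM and 0.10 with median-of-ratios scaling. For BFRTV8d against BFRTV0d the log2 fold was -0.16 as scaled here, -0.0051 with TMM and 0.017 with median-of-ratios scaling. HSPA4L, a nucleotide exchange factor of the HSP110 type, stood out. It was at 2.49 CPM in BFRTV0d, 31.7 CPM in BFRTV4d, 38.7 CPM in BFRTV8d, 6.74 CPM in CiMECs and 2.05 CPM in GMECs, and was 15.6-fold higher in BFRTV8d than in BFRTV0d (13.8 to 17.6). Its close relative HSPA4 did not share this course, with 52.6 CPM in BFRTV0d, 40.2 CPM in BFRTV4d, 27.7 CPM in BFRTV8d, 26.5 CPM in CiMECs and 54.2 CPM in GMECs.

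HSPA8, the constitutive cytosolic HSP70 that also uncoats clathrin vesicles, was at 163 CPM in BFRTV0d, 285 CPM in BFRTV4d, 241 CPM in BFRTV8d, 156 CPM in CiMECs and 186 CPM in GMECs. The ER form HSPA5 was at 169 CPM in BFRTV0d, 75.6 CPM in BFRTV4d, 95.2 CPM in BFRTV8d, 56.9 CPM in CiMECs and 164 CPM in GMECs. The ratio of HSPA8 to HSPA5 was therefore higher in BFRTV4d (3.77, 3.68 to 3.86), BFRTV8d (2.53, 2.47 to 2.59) and CiMECs (2.73, 2.64 to 2.84), and near 1 in GMECs (1.13, 1.11 to 1.16) and BFRTV0d (0.969, 0.950 to 0.989). The inducible HSP70 was scarcely seen. HSP70.1, for which HSPA1A is a synonym, was at 0.236 to 0.894 CPM in all tables, but reads shared with near-identical copies could not be checked, so its level is uncertain.

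The summed ER members were lower after induction. A set of 8 (HSPA5, HSP90B1, HSPA13, DNAJB9, DNAJB11, DNAJC1, DNAJC3 and DNAJC10), put together after their levels had been seen, summed to 958 CPM in BFRTV0d, 654 CPM in BFRTV4d, 560.0 CPM in BFRTV8d, 505 CPM in CiMECs and 849 CPM in GMECs. With the ER membrane J proteins DNAJB12, DNAJB14 and DNAJC18, which were not in this set, the sums were 1020 CPM in BFRTV0d, 719 CPM in BFRTV4d, 628 CPM in BFRTV8d, 544 CPM in CiMECs and 895 CPM in GMECs. Among these, DNAJC18 was higher in both induced tables, 4.49-fold in BFRTV4d (4.15 to 4.87) and 4.01-fold in BFRTV8d (3.70 to 4.35), than in BFRTV0d. HSPA5 was 2.23-fold lower in BFRTV4d than in BFRTV0d (2.17 to 2.29), and by under 2-fold with TMM or median-of-ratios scaling. DNAJC3 (P58IPK), an ER co-chaperone of BiP that the unfolded protein response raises, was at 42.4 CPM in BFRTV4d, against 110 CPM in BFRTV0d. HSPA13, a microsomal HSP70 relative, was at 8.47 CPM in BFRTV8d, against 29.3 CPM in BFRTV0d. DNAJC1, an ER membrane J protein, went the other way and was 2.59-fold higher in BFRTV8d than in BFRTV0d (2.48 to 2.71), with 63.0 CPM in BFRTV8d and 24.3 CPM in BFRTV0d.

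The ER members did not move alike between day 4 and day 8. DNAJB9, an ER J protein of the unfolded protein response, was 2.11-fold higher in BFRTV8d than in BFRTV4d (1.98 to 2.24), at 29.5 CPM in BFRTV8d and 14.0 CPM in BFRTV4d. HSP90B1 was at 210 CPM in BFRTV8d, against 324 CPM in BFRTV4d. DNAJB11, which assists BiP, was at 23.6 CPM in BFRTV8d, against 61.6 CPM in BFRTV0d, and 2.09-fold higher in CiMECs than in BFRTV8d (1.99 to 2.21), though not with ribosomal protein genes kept in the totals. Without the ferritin genes FTH1 and FTL in the totals, DNAJB9 no longer reached 2-fold.

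ER genes outside the naming rule were lower more often than higher too. Of 20 genes of ER folding and the unfolded protein response, 17 were compared between BFRTV4d and BFRTV0d. Of these, 8 were at least 2-fold lower, beside 25.4% of all genes, and 0 higher, beside 13.4%. Their median log2 fold was -0.94 and that of all genes -0.39. Between BFRTV8d and BFRTV0d 8 of 18 were lower, beside 28.0% of all genes, and 3 higher, beside 19.7%. These counts are those of the scaling used here. CRELD2 and SDF2L1, which the unfolded protein response raises, were lowest at day 8. SDF2L1 was at 43.8 CPM in BFRTV8d, against 371 CPM in BFRTV0d, and at 328 CPM in CiMECs, against 346 CPM in GMECs. The collagen-folding genes were lower still. All 9 that were found, out of 10, were at least 2-fold lower in BFRTV8d than in BFRTV0d, beside 28.0% of all genes. Among them SERPINH1, the collagen chaperone HSP47, was at 69.5 CPM in BFRTV8d, against 805 CPM in BFRTV0d. The summed mesenchymal markers moved with these values, at 306 CPM in BFRTV8d and 10956 CPM in BFRTV0d (levels within classes of cells are given further on).

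The summed mitochondrial members were lower in BFRTV8d than in BFRTV4d, although HSPA9 and DNAJA3 were higher and none of the 8 was 2-fold apart. The set (HSPA9, HSPD1, HSPE1, DNAJA3, DNAJC11, DNAJC15, DNAJC19 and DNAJC30), likewise put together after their levels had been seen, summed to 1832 CPM in BFRTV0d, 1730.0 CPM in BFRTV4d, 1320.0 CPM in BFRTV8d, 1214 CPM in CiMECs and 1625 CPM in GMECs. HSPE1 (HSP10) made up 45.1% to 53.7% of these sums. Its ratio to HSPD1 (HSP60), with which it works in 1 complex, was 5.52 (5.44 to 5.61) in BFRTV0d, 4.04 (3.99 to 4.10) in BFRTV4d, 3.82 (3.75 to 3.88) in BFRTV8d, 8.21 (7.97 to 8.46) in CiMECs and 4.15 (4.07 to 4.22) in GMECs. In CiMECs the pair was therefore least even. HSPD1 was at 66.8 CPM in CiMECs, against 176 CPM in BFRTV8d and 203 CPM in GMECs, and HSPE1 at 548 CPM in CiMECs, against 672 CPM in BFRTV8d and 842 CPM in GMECs.

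HSPA9 (mortalin), the HSP70 of the mitochondrial import motor, had the same low point. It was at 21.3 CPM in CiMECs, against 73.8 CPM in BFRTV8d and 63.7 CPM in GMECs, with 105 CPM in BFRTV0d and 55.4 CPM in BFRTV4d. DNAJC15, an inner membrane J protein of that motor, was in contrast highest in CiMECs as scaled here, at 394 CPM, against 186 CPM in BFRTV8d and 340.1 CPM in GMECs. DNAJC19, another J protein of the inner membrane, differed less, at 121 to 197 CPM over the tables. Of 10 genes of mitochondrial folding and proteolysis outside the rule, 2 were at least 2-fold lower and 0 higher in BFRTV8d than in BFRTV0d, beside 28.0% and 19.7% of all genes.

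TRiC was higher at day 4, but its subunits did not move together. The family summed to 1032 CPM in BFRTV0d, 1526 CPM in BFRTV4d, 1211 CPM in BFRTV8d, 1036 CPM in CiMECs and 1486 CPM in GMECs. CCT3 was at 152 CPM in BFRTV0d, 512 CPM in BFRTV4d, 285 CPM in BFRTV8d, 188 CPM in CiMECs and 301 CPM in GMECs, and was 3.38-fold higher in BFRTV4d than in BFRTV0d (3.32 to 3.43). CCT8 was at 148 CPM in BFRTV4d, against 74.2 CPM in BFRTV0d, and CCT4 at 217 CPM in BFRTV8d, against 105 CPM in BFRTV0d. CCT2 and CCT5 went down: CCT2 was at 176 CPM in BFRTV8d, against 275 CPM in BFRTV0d, and CCT5 at 56.2 CPM in BFRTV8d, against 96.0 CPM in BFRTV0d.

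The other subunits, TCP1, CCT6A and CCT7, stayed between 93.7 and 157 CPM in all tables, except TCP1 at 64.6 CPM in CiMECs. Over the 8 subunit genes of the ring, the highest level was 3.71 times the lowest in BFRTV0d, 7.54 times in BFRTV4d, 5.08 times in BFRTV8d, 3.54 times in CiMECs and 3.34 times in GMECs. BFRTV4d was therefore the table with the least even subunits. CCT6B, known as a testis form of CCT6, was at 0.416 to 2.93 CPM and is not among the 8. Prefoldin, which hands actin and tubulin to TRiC, was not uniform either. Of its 6 genes, PFDN5 was 3.19-fold higher in BFRTV8d than in BFRTV0d (3.15 to 3.24) and PFDN4 was at least 2-fold lower.

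**Figure D4:**
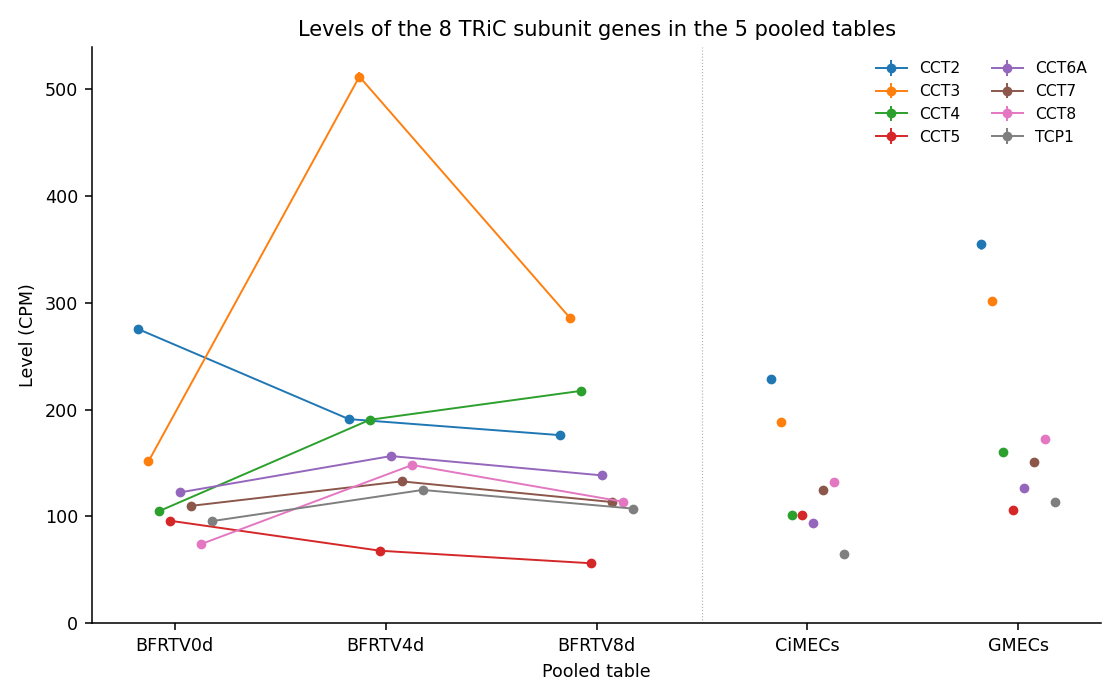
Levels in CPM (vertical axis, from 0) of 8 TRiC subunit genes in the 5 pooled tables (horizontal axis), joined by lines over the induction and with 95% counting intervals within the points. CCT3 stood at 512 CPM in BFRTV4d and 152 CPM in BFRTV0d, while CCT2 was the highest subunit in BFRTV0d, CiMECs and GMECs.

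J-domain genes of the DNAJA and DNAJB families gave the general HSP70 partners. DNAJB1, the heat-inducible partner of cytosolic HSP70, was at 61.2 CPM in BFRTV0d, 61.1 CPM in BFRTV4d, 144 CPM in BFRTV8d, 72.0 CPM in CiMECs and 66.9 CPM in GMECs. Over whole tables only BFRTV8d stood apart, 2.36-fold above BFRTV4d (2.29 to 2.43). Within the epithelial only cells described further on, DNAJB1 was at 95.2 CPM in BFRTV4d and 150 CPM in BFRTV8d, against 154 CPM in BFRTV0d, so that day 8 did not stand above day 0 there and was 1.57-fold above day 4 (1.52 to 1.63). Single cells of BFRTV0d held up to 90 UMIs of DNAJB1, against at most 34 in the other tables, and their class was not examined. DNAJB4, another cytosolic J protein, was at 26.1 CPM in BFRTV0d, 39.9 CPM in BFRTV4d, 56.3 CPM in BFRTV8d, 18.0 CPM in CiMECs and 26.9 CPM in GMECs. Early response genes, which cell dissociation can raise, were also highest in BFRTV8d but did not follow DNAJB1 over the other tables. Their 10 genes summed to 2634 CPM in BFRTV0d, 1329 CPM in BFRTV4d, 5224 CPM in BFRTV8d, 680.3 CPM in CiMECs and 1186 CPM in GMECs, and all 9 that were compared were at least 2-fold higher in BFRTV8d than in BFRTV4d, beside 10.7% of all genes. FOS, one of them, was at 619 CPM in BFRTV8d, against 197 CPM in BFRTV4d. Their part in the level of DNAJB1 was not tested.

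The mRNA of the heat shock factor HSF1 did not follow that of DNAJB1, and its part in the level of DNAJB1 was not tested. HSF1 was at 125 CPM in BFRTV0d, 43.7 CPM in BFRTV4d, 56.4 CPM in BFRTV8d, 24.9 CPM in CiMECs and 54.4 CPM in GMECs. DNAJA1, a farnesylated J protein, was at 48.3 to 74.3 CPM in the other tables, against 119 CPM in BFRTV0d, whereas its relative DNAJA2 was highest at day 8, at 138 CPM, against 84.1 CPM in BFRTV0d. DNAJB5 was highest at day 4, at 12.5 CPM, against 4.79 CPM in BFRTV0d.

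DNAJC genes serve single places in the cell and behaved one by one. DNAJC18, an ER membrane J protein, was at 6.41 CPM in BFRTV0d, 28.8 CPM in BFRTV4d, 25.7 CPM in BFRTV8d, 11.8 CPM in CiMECs and 9.17 CPM in GMECs. DNAJC28 was at 7.23 CPM in BFRTV0d, 11.8 CPM in BFRTV4d, 13.5 CPM in BFRTV8d, 3.93 CPM in CiMECs and 4.06 CPM in GMECs. DNAJC9, a histone chaperone of dividing cells, was at 20.2 CPM in BFRTV0d, 8.39 CPM in BFRTV4d, 3.29 CPM in BFRTV8d, 5.45 CPM in CiMECs and 13.1 CPM in GMECs. Summed cycling markers were at 445 CPM in BFRTV0d, 454 CPM in BFRTV4d, 177 CPM in BFRTV8d, 223 CPM in CiMECs and 686 CPM in GMECs. Within tables, DNAJC9 was 3.32-fold higher in cells with cycling markers than in the other cells of BFRTV4d (2.90 to 3.80), 3.99-fold in BFRTV8d (2.99 to 5.26), 5.87-fold in CiMECs (4.73 to 7.26) and 3.27-fold in GMECs (2.87 to 3.73), but 1.09-fold in BFRTV0d (0.98 to 1.21).

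DNAJC22, whose fly counterpart acts in clathrin-mediated uptake, was higher in both mammary epithelial cultures than in the other tables. It was at 4.24 CPM in BFRTV0d, 3.15 CPM in BFRTV4d, 0.900 CPM in BFRTV8d, 17.0 CPM in CiMECs and 30.8 CPM in GMECs, and was 18.9-fold higher in CiMECs than in BFRTV8d (15.3 to 23.6). DNAJC21, which helps to mature the large ribosomal subunit, was at 104 to 146 CPM in the other tables, against 204 CPM in BFRTV0d. HSPBP1, a nucleotide exchange factor that binds HSP70, was at 64.5 CPM in BFRTV0d, 21.4 CPM in BFRTV4d, 17.3 CPM in BFRTV8d, 30.1 CPM in CiMECs and 46.0 CPM in GMECs. Of 20 co-chaperones of HSP70 and HSP90, HSPBP1 among them, 3 were at least 2-fold higher and 6 lower in BFRTV8d than in BFRTV0d, beside 19.7% and 28.0% of all genes. PPID, a cyclophilin that binds HSP90, was at 119 CPM in BFRTV8d, against 37.3 CPM in BFRTV0d.

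The comparison of CiMECs with BFRTV8d sets cells passaged in another medium beside day-8 cells, and it crosses the 2 table sets. Passaging, medium and table set cannot be told apart in it. Of 55 members compared, 9 were at least 2-fold higher in CiMECs, beside 9.94% of all genes, and 15 were lower, beside 43.3% of all genes. Here the scaling decided the split: the median log2 fold of all genes was -0.78 as used here, 0.05 with TMM and 0.13 with median-of-ratios scaling. With TMM, 15 of 55 members were higher and 5 lower, beside 22.9% and 21.5% of all genes. With median-of-ratios scaling, 16 of 54 were higher and 3 lower, beside 24.6% and 19.9% of all genes. With ribosomal protein genes kept in the totals, 3 of 55 were higher and 25 lower, beside 5.34% and 57.9% of all genes. Since the BFRTV8d table holds no ribosomal protein genes, that setting could only lower the levels of CiMECs beside it. The sums of HSP90, TRiC, DNAJB and HSP60 with HSP10 were lower in CiMECs as scaled here but higher with TMM and median-of-ratios scaling, and the HSP70 sum was higher only with median-of-ratios scaling. The DNAJC sum was higher except with ribosomal protein genes kept. Without DNAJC15 the sum as scaled here was lower, at 919 CPM in CiMECs, against 1008 CPM in BFRTV8d. Of 19 DNAJC genes compared as scaled here, 6 were higher and 13 lower, with a median log2 fold of -0.57. The small HSP sum stayed higher with all of them, with log2 folds of 0.62 to 1.85, and the DNAJA sum stayed lower, with log2 folds of -1.55 to -0.32.

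CiMECs and GMECs belong to the same table set. Of 53 members compared, 2 were at least 2-fold higher in CiMECs, beside 5.53% of all genes, namely HSPB6 and HSPB11, and 7 were lower, beside 26.0% of all genes. The 7 were HSPA4, HSPA5, HSPA9, HSPD1, DNAJC9, DNAJC11 and DNAJC13. HSPA5 was 2.88-fold lower in CiMECs than in GMECs (2.78 to 2.99), HSPD1 3.04-fold lower (2.94 to 3.14) and HSPA9 3.00-fold lower (2.83 to 3.18). The members' median log2 fold was -0.48 and that of all genes -0.51. With TMM, 5 of 54 members were higher and 4 lower, beside 13.4% and 9.03% of all genes. With median-of-ratios scaling, 6 of 55 were higher and 3 lower, beside 14.0% and 8.67% of all genes. With every scaling, HSPD1, HSPA9 and DNAJC11 remained among the lower members.

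The levels were then set apart by the markers of single cells. Each cell was thinned to 2000 UMIs, and a cell with at least 2 UMIs of epithelial markers and fewer than 2 of mesenchymal markers was taken as epithelial only, and the other way round as mesenchymal only. These classes are ranges of a score and not cell types. Epithelial only cells were 4.53% of the cells in BFRTV0d and 44.2% in BFRTV4d, then 94.4% in BFRTV8d, and 99.2% in CiMECs beside 99.8% in GMECs, and 16.4% of BFRTV4d cells had both kinds of marker. In BFRTV4d, 1232 of the 4509 epithelial only cells had 1 UMI of the mesenchymal markers, and 1516 of the 3985 mesenchymal only cells 1 UMI of the epithelial ones, just under the cut. The median epithelial only cell held 0 UMIs of mesenchymal markers there, and the median mesenchymal only cell 0 of epithelial markers. Doublets were not called, and the median depth was 16276 UMIs in epithelial only against 9895 in mesenchymal only cells of BFRTV0d, and 9516 against 9356 in BFRTV4d. Levels are those of all UMIs of a class.

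Within BFRTV4d, where the classes were of like size and depth, most chaperones were higher in the epithelial only cells, as were most other genes. Of 57 members, 15 were at least 2-fold higher there than in mesenchymal only cells, beside 27.6% of all genes, and 2 were lower, beside 9.26% of all genes, with a median log2 fold of 0.57 for the members and 0.51 for all genes. HSPB8 was at 64.2 CPM in epithelial only and 2.34 CPM in mesenchymal only cells, 27.5-fold apart (22.3 to 34.2). HSPA4L was at 57.2 CPM in epithelial only and 5.56 CPM in mesenchymal only cells, and DNAJB1 at 95.2 CPM in epithelial only and 25.8 CPM in mesenchymal only cells. HSPB6 was the reverse, at 6.78 CPM in epithelial only and 68.3 CPM in mesenchymal only cells, and DNAJB5 was the other lower member. HSPB8 and HSPA4L were thus held by the epithelial side of the BFRTV4d cells and HSPB6 by the mesenchymal side.

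In BFRTV0d the epithelial only class rests on 483 cells, of which 243 had 1 UMI of mesenchymal markers, just under the cut, and the median cell held 1. Called without thinning, only 10 cells remained in it. In the thinned class, 8 of 55 members were at least 2-fold higher in epithelial only than in mesenchymal only cells, beside 11.3% of all genes, and 2 were lower, beside 17.2% of all genes. HSPA8 was at 413 CPM in epithelial only and 132 CPM in mesenchymal only cells, HSPB1 at 929 CPM and 325 CPM, and HSP90AB1 at 1228 CPM and 604 CPM in the same order. HSPA6, an inducible HSP70 that was below 10 CPM in every whole table and was picked after its values had been seen, was at 56.0 CPM in the epithelial only cells and 0.777 CPM in the mesenchymal only cells. HSPB2 was lower, at 2.07 CPM in epithelial only and 19.4 CPM in mesenchymal only cells. In the whole BFRTV0d table HSPA6 was at 6.62 CPM, from 778 UMIs in 91 of 10670 cells, so that few cells carry its class value.

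**Figure D5:**
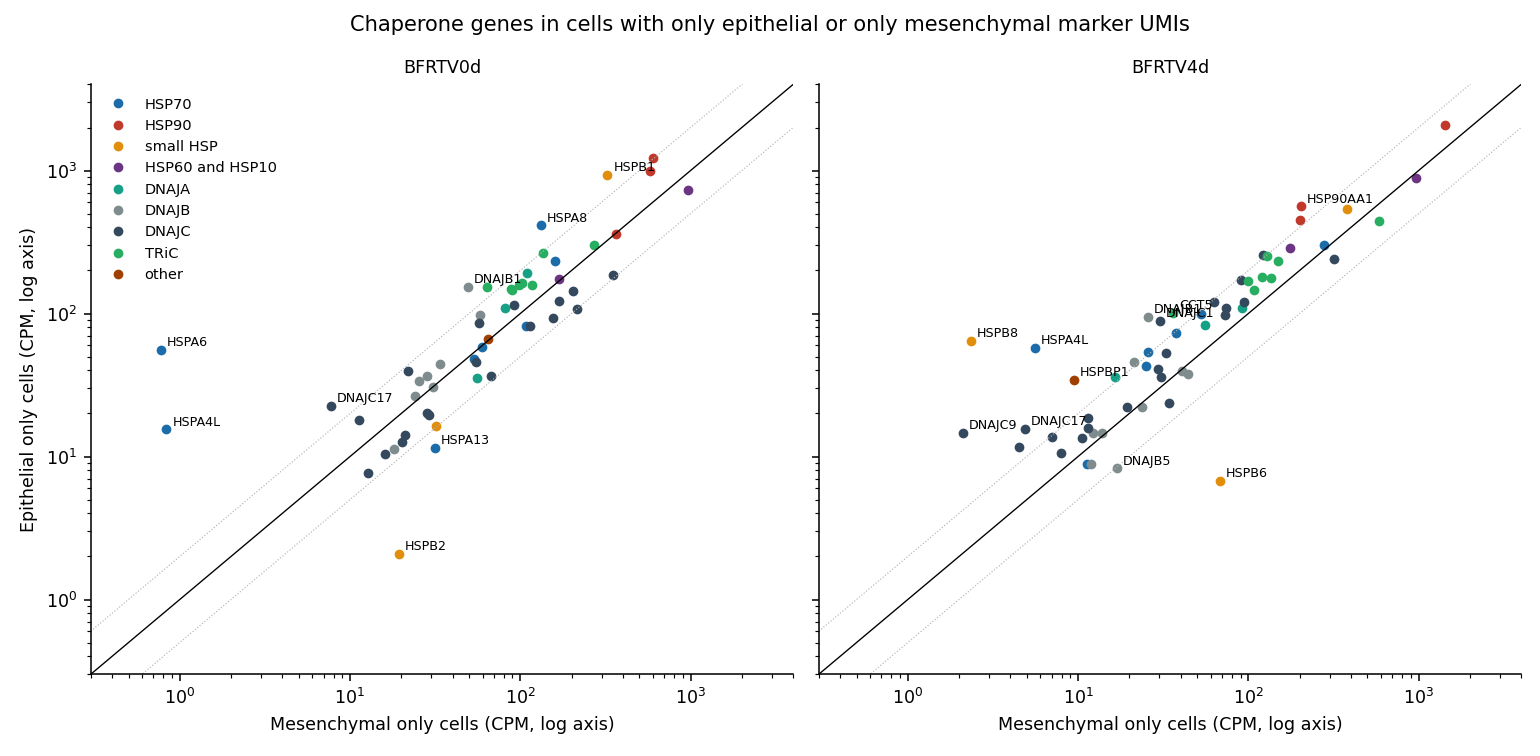
Levels in CPM of the members with at least 10 CPM in 1 class (both axes on a log scale), in epithelial only cells (vertical) against mesenchymal only cells (horizontal) of BFRTV0d (left) and BFRTV4d (right). Points are genes coloured by family, the solid line marks equal levels and the dotted lines 2-fold. HSPB8 stood at 64.2 against 2.34 CPM in BFRTV4d, and HSPB6 at 6.78 against 68.3 CPM.

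Classes of the same kind were last compared between days, so that the share of cells in a class does not enter the levels. The cut does not make the classes alike. The median epithelial only cell held 1 UMI of mesenchymal markers in BFRTV0d and 0 in BFRTV4d and BFRTV8d. Its depth was 16276 UMIs in BFRTV0d, 9516 UMIs in BFRTV4d and 8959 UMIs in BFRTV8d. Of 57 members, 5 were at least 2-fold higher in epithelial only cells of BFRTV4d than in those of BFRTV0d, beside 15.0% of all genes, and 6 were lower, beside 12.3% of all genes. At day 8 the counts were 4 higher, beside 19.1% of all genes, and 10 lower, beside 17.9% of all genes, with the same 483 BFRTV0d cells as the second class. HSPB8 was at 64.2 CPM in BFRTV4d and 130.3 CPM in BFRTV8d epithelial only cells, against 6.54 CPM in those of BFRTV0d, and HSPA4L at 57.2 CPM and 40.3 CPM, against 15.5 CPM. Both were therefore higher within the class as well, by smaller folds than over whole tables. HSPB1 and HSPA8 turned direction: HSPB1 was at 541 CPM in BFRTV4d and 723 CPM in BFRTV8d epithelial only cells, against 929 CPM in those of BFRTV0d, and HSPA8 at 299 CPM and 242 CPM, against 413 CPM. Single cells of BFRTV0d held up to 200 UMIs of HSPA8 and 189 of HSPA5, against at most 25 and 26 in the other tables. The class of such cells was not examined. In mesenchymal only cells HSPB1 was 1.17-fold (1.14 to 1.19) and HSPA8 2.10-fold (2.05 to 2.16) higher in BFRTV4d than in BFRTV0d. HSPA6, which few BFRTV0d cells carried, was at 0.391 CPM in BFRTV4d and 1.69 CPM in BFRTV8d epithelial only cells, against 56.0 CPM in those of BFRTV0d. HSPA5 was at 98.9 CPM and 97.8 CPM, against 234 CPM, so that its lower level was found within the epithelial class too. HSP90B1, the ER member with the highest level, was instead at 452 CPM in BFRTV4d and 212 CPM in BFRTV8d, against 362 CPM in BFRTV0d. DNAJC1 was higher on both days, at 88.2 CPM and 64.1 CPM, against 39.4 CPM. The other members of the ER set were lower in BFRTV4d than in BFRTV0d. The sum of the 8 ER members was at 870.4 CPM in BFRTV4d and 569 CPM in BFRTV8d epithelial only cells, against 994 CPM in those of BFRTV0d.

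In mesenchymal only cells the members were shifted as all genes were, with a median log2 fold of -0.73 for both between BFRTV4d and BFRTV0d. Of 55, 6 were at least 2-fold higher in BFRTV4d than in BFRTV0d, beside 10.5% of all genes, and 19 were lower, beside 39.7% of all genes. HSP90AB1 was at 1434 CPM in BFRTV4d, against 604 CPM in BFRTV0d, and HSP90AA1 at 203 CPM, against 577 CPM, so that the 2 forms parted within this class also. In epithelial only cells HSP90AB1 was at 2098 CPM in BFRTV4d, against 1228 CPM in BFRTV0d. CCT3 was at 584 CPM in mesenchymal only cells of BFRTV4d, against 135 CPM in those of BFRTV0d, a 4.32-fold difference (4.23 to 4.42). In epithelial only cells it was at 447 CPM in BFRTV4d, against 266 CPM in BFRTV0d, a 1.68-fold difference (1.61 to 1.76). The day 4 peak of CCT3 was thus found in both classes and was wider in the mesenchymal one.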

How the data were processed

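The authors deposited 1 table of raw UMI counts per group, made with Cell Ranger (version not given in the sources used here) after FastQC 0.10.1 per the labels. The genome build was not given in the sources used here. Coordinates and sequences are therefore not printed, and RefSeq (assembly ARS1.2) served for names only. Cell names carry no sample, so counts were summed per table and each group was 1 library. Members and gene lists were chosen with earlier results of these data known. CPM totals left out 74 ribosomal protein genes. Folds have exact 95% conditional binomial intervals. A listed gene at 0 was set at 3 counts, and an unlisted gene at 1 UMI in each of the 11 or 6 cells that the table's listed genes reach at least, which is no bound. From each family the text names the 3 members with the highest levels, the 5 with the largest folds and all TRiC genes, from each companion list up to 4 genes with the largest folds; DNAJC1, DNAJC3, HSPA6, HSP70.1, DNAJC11 and others named beside them were added after their values were seen. Between 37 and 147 barcode sequences occur in each pair of tables. The interval was tested on simulated counts. Alternatives were other totals, TMM (edgeR 4.0.16) and median-of-ratios (DESeq2 1.42.0) factors, other minimum levels, barcodes of at least 2000 UMIs, genes in all tables and, added after seeing the data, leaving out the 5% of barcodes with most UMIs. Python 3.11.15, pandas 2.3.3, scipy 1.17.1 and R 4.3.3 were used.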

Additional observations from a re-analysis of the deposited data

How the results depend on the processing

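No paired analysis was possible because cells carry no sample, and for the same reason no replicate could be left out. The counts of members at least 2-fold apart moved by over 1.5 times as follows. With ribosomal protein genes kept in the totals, CiMECs against BFRTV8d gave 3 higher (5.34% of all genes) and 25 lower (57.9%), and CiMECs against GMECs 4 lower (17.2%). The BFRTV tables hold none of these genes, so this setting lowers only the levels of CiMECs and GMECs. With TMM factors, CiMECs against BFRTV8d gave 15 higher and 5 lower, and CiMECs against GMECs 5 higher and 4 lower. With median-of-ratios factors they gave 16 higher and 3 lower, and 6 higher and 3 lower. The shares of all genes for these factors are given above. With no minimum level, BFRTV8d against BFRTV4d gave 5 higher (11.6% of all genes) and 9 lower (11.3%), and CiMECs against GMECs 7 higher (9.19%). With a minimum of 50 CPM, BFRTV4d against BFRTV0d gave 3 higher (12.3% of all genes) and 5 lower (30.0%). BFRTV8d against BFRTV0d gave 4 lower (30.1%) and BFRTV8d against BFRTV4d 0 lower (7.04%). CiMECs against BFRTV8d gave 4 higher (17.1%) and 9 lower (36.3%), and CiMECs against GMECs 1 higher (7.27%) and 4 lower (18.6%). The minimum levels change which genes are compared, and for the totals and factors the cause was not tested. Of the 51 values of named genes and families in CiMECs against BFRTV8d, 15 turned direction with TMM factors and 18 with median-of-ratios factors, none of them 2-fold apart. Keeping barcodes of at least 2000 UMIs turned none. Leaving out the 5% of barcodes with most UMIs, chosen after seeing the data, gave 9 higher and 11 lower members for BFRTV4d against BFRTV0d, beside 14.1% and 26.6% of all genes. Counting intervals are narrow at this depth and do not cover differences between cultures, which 1 library per group cannot show.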
